A study of Mus musculus with 6 samples.

Results

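The genes described here were the interleukins and interleukin receptors, taken as every row of the expression table whose symbol begins with *Il* followed by a number. There were 67 such genes among the 17556 of the table: 23 ligands, 37 receptor chains, 2 soluble antagonists (*Il1rn* and *Il18bp*), 2 decoy receptors (*Il1r2* and *Il13ra2*), the binding protein *Il22ra2*, and the enzyme gene *Il4i1* with its paralog *Il4i1b*. They were expressed in RNA of whole left ventricles taken from adult mice at 4 dpi (days post injury), 3 called Cre-positive and 3 called Cre-negative. All 6 mice were siblings of 6 to 10 weeks of age with both *Yap* alleles and a single *Wwtr1* allele floxed, all had permanent ligation of the left anterior descending artery, and all ate tamoxifen citrate diet from the time of surgery. The Cre-positive mice carried MerCreMer, a Cre recombinase active in the presence of tamoxifen, under the endogenous periostin (*Postn*) promoter, and the Cre-negative mice had wildtype *Postn*. Recombination was thus driven in *Postn*-expressing cells, the myofibroblasts of the injured heart, while RNA came from all cells of the ventricle. No uninjured heart was among these samples.

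Interleukins are secreted signals that act on receptor complexes of a ligand-binding chain and a signalling chain that is often shared by several cytokines. IL-1, IL-33 and IL-36 act through receptors paired with *Il1rap* and the adaptor MyD88, IL-18 through a receptor paired with *Il18rap*, IL-6 family ligands through gp130, encoded by *Il6st*, and IL-2, IL-4, IL-7, IL-15 and IL-21 through the common gamma chain, encoded by *Il2rg*. After myocardial infarction, IL-1 and IL-6 are best known as signals of early inflammation, made largely by infiltrating myeloid cells and by stromal cells, and the type 2 cytokines and IL-10 are associated with repair.

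The bases before a listed transcript start are shown for the 5 members of the IL-1 and IL-6 families whose 3 Cre-positive values all lay above the 3 Cre-negative values, namely 2 ligands and 3 receptor chains. The sequences are from RefSeq, build GRCm38.p6, each 250 bases long, read 5′ to 3′ on the strand of the gene and ending at the base before the listed start. Capitals mark matches to 4 motifs on either strand: CATTCC (bound by TEAD factors, the partners of Yap and Wwtr1), TGANTCA (AP-1), GGGANTTTC (NF-kB) and TTCNNNGAA (STAT). The first sequence lies at chr2:129371140-129371389 (minus strand), the second at chr5:30012864-30013113 (plus strand), the third at chr16:26581455-26581704 (plus strand), the fourth at chr1:40324339-40324588 (plus strand) and the fifth at chr13:112463820-112464069 (plus strand). The listed starts of *Il1b* and *Il1rap* lie inside the annotated extents of these genes (chr2:129364569-129371164 and chr16:26581509-26730128). Their windows therefore overlap the genes, in the case of *Il1rap* by most of the window.
Il1b: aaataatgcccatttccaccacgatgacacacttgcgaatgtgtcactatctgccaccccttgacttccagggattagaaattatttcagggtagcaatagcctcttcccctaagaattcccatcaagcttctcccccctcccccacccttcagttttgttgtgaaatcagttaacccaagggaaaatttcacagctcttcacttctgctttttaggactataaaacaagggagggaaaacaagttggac
Il6: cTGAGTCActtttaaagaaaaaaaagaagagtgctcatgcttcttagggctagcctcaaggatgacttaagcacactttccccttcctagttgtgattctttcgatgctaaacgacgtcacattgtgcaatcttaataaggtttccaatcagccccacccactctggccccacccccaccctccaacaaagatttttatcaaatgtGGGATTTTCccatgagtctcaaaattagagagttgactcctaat
Il1rap: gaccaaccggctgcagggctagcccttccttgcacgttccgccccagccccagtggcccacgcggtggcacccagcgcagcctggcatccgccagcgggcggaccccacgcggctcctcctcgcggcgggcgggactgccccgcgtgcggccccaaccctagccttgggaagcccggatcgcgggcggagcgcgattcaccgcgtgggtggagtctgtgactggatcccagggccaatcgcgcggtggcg
Il1rl2: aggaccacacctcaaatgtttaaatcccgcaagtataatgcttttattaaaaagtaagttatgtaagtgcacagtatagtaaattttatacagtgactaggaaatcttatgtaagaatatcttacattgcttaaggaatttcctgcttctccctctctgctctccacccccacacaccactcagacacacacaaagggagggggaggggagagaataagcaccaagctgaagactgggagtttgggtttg
Il6st: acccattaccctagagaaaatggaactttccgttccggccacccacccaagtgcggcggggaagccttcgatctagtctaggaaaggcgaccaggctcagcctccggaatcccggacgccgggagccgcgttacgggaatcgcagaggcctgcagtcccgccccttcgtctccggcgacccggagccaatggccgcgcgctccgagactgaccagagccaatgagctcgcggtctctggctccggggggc
The *Il6* window held an AP-1 match 249 bases upstream of the start and an NF-kB match 44 bases upstream. No match to these letters was in the windows of *Il1b*, *Il1rap*, *Il1rl2* or *Il6st*. RefSeq listed 65 starts for 52 of the members. TEAD matches were in 10 of these windows (15.4%, against 12.6% of all 32851 windows), AP-1 matches in 11 (16.9%, against 6.75%), NF-kB matches in 2 (3.08%, against 0.941%) and STAT matches in 6 (9.23%, against 7.02%). A match is a description of the sequence and was not tested against the values.

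The libraries held between 13177888 and 14827579 estimated counts, so that a gene with 0 counts could have had up to 3, or 0.202 to 0.228 per 1000000 counts (upper 95% limit, counting error only). The library of Cre-negative replicate 1 stood apart: the chi-square per gene, which is near 1 for sampling noise alone, was 43.8 to 67.6 in the 5 pairs with it and 8.04 to 17 in the other 10 pairs. Its neutrophil markers summed to 965 TPM (transcripts per 1000000, a level corrected for transcript length), against 81.6 to 258 TPM in the other 5, where 1 of the 8 markers was at 0 in at least 1 library. The floxed genes did not mark the genotype in whole ventricles. *Yap1* was at 1550, 1476 and 1422 normalized counts in the Cre-negative ventricles and at 1619, 1439 and 1477 in the Cre-positive ones, and *Wwtr1* at 1620, 1466 and 1608 against 1618, 1562 and 1664. Counts over a whole gene cannot show loss of a floxed exon in a part of the cells. *Postn*, the locus of the Cre, was at 12182, 24690 and 26917 normalized counts in the Cre-negative ventricles and at 12708, 14270 and 13514 in the Cre-positive ones. Cre-negative replicate 1 thus had the *Postn* level of the other group. Values without this library are given beside several results that moved with it. Ventricles are named by group and replicate number below, with values in the order 1, 2, 3.

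Receptor chains made up most of the interleukin transcripts, and most ligands were near the limit of detection. Of the 67 members, 16 had a mean of at least 10 TPM, of which 12 were receptor chains, 3 were ligands (*Il33*, *Il15* and *Il16*) and 1 was the antagonist *Il18bp*. Another 31 members had a mean under 1 TPM, of which 14 were ligands. The highest was *Il10rb*, the accessory chain of the IL-10, IL-22 and type III interferon receptors, at 125 to 138 TPM in the 6 ventricles, above every value of any other member. *Il6st* followed at 64.6 to 90.7 TPM. The ranges of the next members overlapped one another and that of *Il6st*: *Il4ra*, the chain shared by the IL-4 and IL-13 receptors, was at 51.4 to 84.5 TPM, *Il11ra1*, the IL-11 receptor, at 59.9 to 74.2 TPM, and *Il2rg* at 34.1 to 67.9 TPM. *Il33*, an alarmin held in the nucleus of stromal cells, was the ligand with the highest mean, at 17.2 to 28.3 TPM. *Il1b* was at 2.75 to 11.1 TPM and *Il6* at 1.88 to 3.73 TPM.

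**Figure D1:**
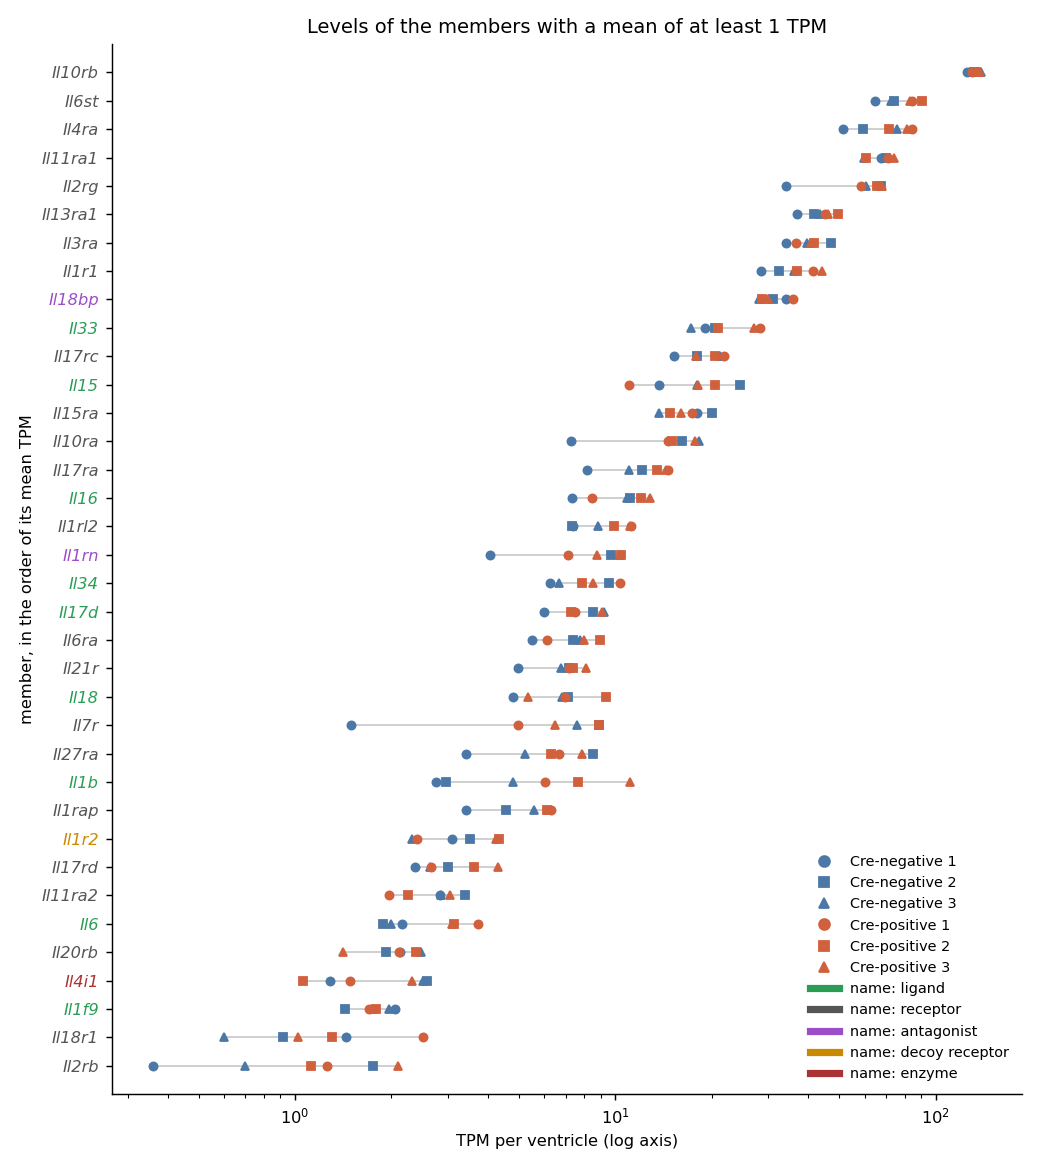
TPM of the 36 members with a mean of at least 1 TPM, 1 point per ventricle on a log axis, with members ordered by their mean and names coloured by role. *Il10rb* lies above all others at 125 to 138 TPM, and the point of Cre-negative replicate 1 lies far to the left for *Il7r* (1.49 TPM against 4.98 to 8.91 in the others) and *Il2rb* (0.36 against 0.70 to 2.09).

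For the comparison of genotypes, 43 of the 67 members had enough counts to be tested, and 24 did not. No member passed the test: by edgeR's quasi-likelihood test with Benjamini-Hochberg adjustment over 13817 genes, 0 of 43 members had an adjusted p under 0.05, and the lowest was 0.714. The background was 1 gene of 13817, or 0.00724%. DESeq2 also called 0 members, and the lowest adjusted p of any member under any setting tried was 0.509. At an unadjusted p under 0.05, 3 of the 43 members (6.98%) were higher in Cre-positive ventricles, against 2.85% of all genes tested. These were *Il1b*, *Il1rl2* and *Il17ra*. In the other direction 0 members were lower, against 2.98%. The 3 Cre-positive values all lay above the 3 Cre-negative values for 7 of the 43 members (16.3%), against 7.55% of all genes. These were *Il1b*, *Il6*, *Il1rap*, *Il1rl2*, *Il17ra*, *Il6st* and *Il13ra1*. All 3 lay below for 2 members (4.65%), *Il10rb* and *Il11ra2*, against 6.85% of all genes. The labels name separate mice only through their replicate numbers, and p-values measure the spread between these samples. In whole ventricles, fewer cells of a type and less RNA per cell cannot be told apart.

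Among the 43 tested members, the fitted fold change was above 0 for 31 and below 0 for 12, with a median of 0.13 on the log2 scale, against 51.2% above 0 and a median of 0.006 over all genes. Without Cre-negative replicate 1 the members divided into 25 above 0 and 19 below, with a median of 0.03. On log2(TPM + 1) they divided into 36 and 7 with a median of 0.24, but that scale moved all genes upward (73.1% above 0, median 0.109). Without Cre-negative replicate 1, 4 of 44 members were higher at an unadjusted p under 0.05 (*Il1b*, *Il22ra1*, *Il18r1* and *Il1rl2*), against 3.58% of all genes, and 0 were lower, against 3.01%. Groups then did not overlap for 9 of the 44 members higher (11.6% of all genes) and for 5 lower (12.2%). On the TPM scale they did not overlap for 10 of the 43 members higher (15% of all genes) and for 0 lower (2.44%). Leaving out other libraries moved the count of 3 as well. It was 5 of 44 without Cre-negative replicate 3 (4.07% of all genes) and 6 of 43 without Cre-positive replicate 2 (1.76%). It was 2 of 43 without Cre-positive replicate 1 (2.13%) and 1 of 44 without Cre-positive replicate 3 (2.01%). The count of 7 was 13 of 44 without Cre-negative replicate 2 (12.9% of all genes) and 11 of 44 without Cre-negative replicate 3 (14.9%). It was 12 of 43 without Cre-positive replicate 1 (14.2%). The count of 2 was 4 of 44 without Cre-negative replicate 2 (11.7% of all genes) and 3 of 44 without Cre-negative replicate 3 (13.8%).

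**Figure D2:**
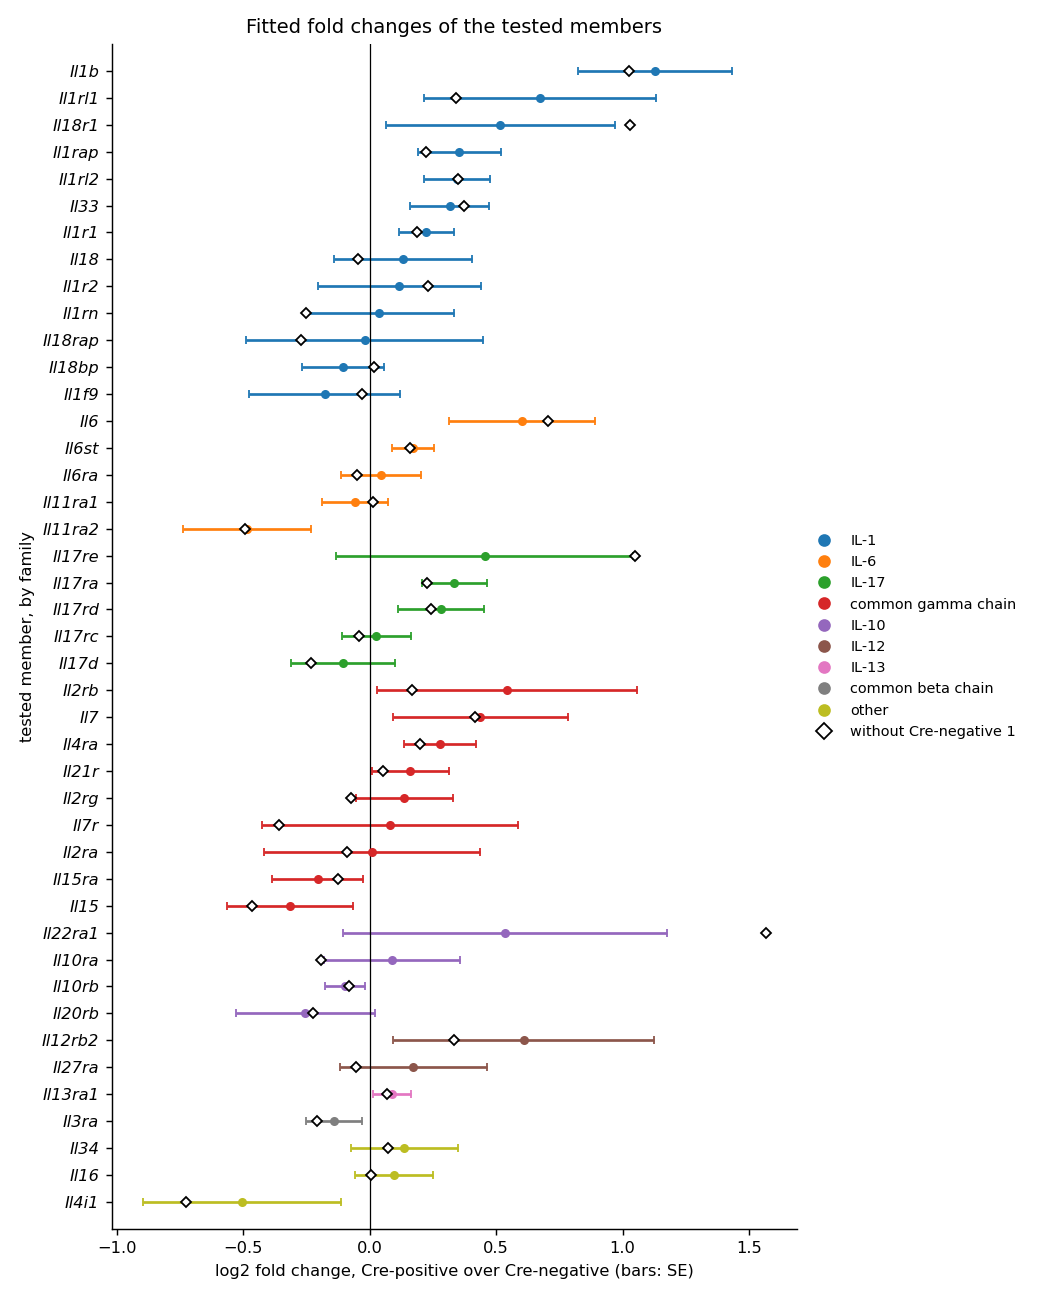
Fitted log2 fold change of Cre-positive over Cre-negative ventricles for the 43 tested members by family, with bars for the standard error (SE) and open diamonds for the value without Cre-negative replicate 1. *Il1b* has the largest value (1.13), 31 members lie above 0, and *Il22ra1* moves furthest when that library is left out (from 0.53 to 1.57).

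In the IL-1 family, 3 of the 13 tested members had Cre-positive values that all lay higher, against 7.55% of all genes, and *Il1b*, the secreted inflammatory ligand cleaved by caspase-1, had the largest fitted difference of the 43 tested members. *Il1b* (chr2:129364569-129371164) was at 30.6, 29.5 and 47.7 normalized counts in the Cre-negative ventricles and at 60.8, 70.3 and 106 in the Cre-positive ones. Every Cre-positive value was above the highest Cre-negative one, that of replicate 3. The fitted difference was 2.19-fold (log2 fold change 1.13, SE 0.31, unadjusted p = 0.0066, edgeR adjusted p = 0.714), and the log2 fold change stayed between 0.86 and 1.39 in the alternatives, with adjusted p from 0.509 to 0.958. *Il1a*, the other ligand of the same receptor, was not tested, with counts of 8, 4 and 10 against 11, 3 and 3. *Il33* (chr19:29925113-29960718) was at 412, 398 and 333 normalized counts in the Cre-negative group and at 548, 376 and 498 in the Cre-positive group. Cre-positive replicate 2 lay within the Cre-negative range, and the log2 fold change was 0.32 (SE 0.16, unadjusted p = 0.083). *Il18*, a ligand activated by the same protease as IL-1 beta, overlapped between groups, at 37.7, 57.0 and 59.4 normalized counts against 57.8, 68.4 and 43.0. *Il1f9*, which encodes IL-36 gamma, had a log2 fold change of -0.18 (SE 0.30), or -0.35 to -0.03 with each library left out in turn.

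Of the 7 receptor chains of the IL-1 family 6 were tested and none passed, with 5 fitted values above 0 (51.2% of all genes) and a median log2 fold change of 0.35 (0.28 without Cre-negative replicate 1). *Il1rl2*, the receptor of the IL-36 ligands, was at 245, 220 and 264 normalized counts in the Cre-negative ventricles and at 341, 266 and 319 in the Cre-positive ones. The groups did not overlap, although Cre-positive replicate 2 exceeded Cre-negative replicate 3 by few counts, and the log2 fold change was 0.35 (SE 0.13, unadjusted p = 0.032), with 0.27 to 0.45 in the alternatives. *Il1rap*, the accessory chain shared by the receptors of IL-1, IL-33 and IL-36, was at 128, 154 and 192 normalized counts against 212, 199 and 197. The Cre-positive values lay close together above a wider Cre-negative group, with a log2 fold change of 0.35 (SE 0.16, unadjusted p = 0.064). Without Cre-negative replicate 1, the lowest, it was 0.22. *Il1r1*, the signalling receptor of IL-1, was at 1146, 1165 and 1294 normalized counts against 1474, 1223 and 1511, with a log2 fold change of 0.22 (SE 0.11, unadjusted p = 0.075). Here again Cre-positive replicate 2 lay within the range of the Cre-negative group. *Il1rl1*, the receptor of IL-33 also called ST2, was low, at 7.07, 13.8 and 26.3 normalized counts against 24.9, 21.3 and 30.3, and its log2 fold change of 0.67 (SE 0.46) went to 0.34 without Cre-negative replicate 1 and to 1.26 without Cre-negative replicate 3 (unadjusted p = 0.027, edgeR adjusted p = 0.509). *Il18r1* overlapped between groups (0.52, SE 0.45) but not without Cre-negative replicate 1 (1.03, SE 0.42, unadjusted p = 0.038, edgeR adjusted p = 0.733), and with each library left out in turn its log2 fold change ran from 0.15 to 1.03. The neuronal family member *Il1rapl1* had 1 count in all 6 libraries together.

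*Il1r2*, *Il1r1*, *Il1rl2*, *Il1rl1*, *Il18r1* and *Il18rap* lie in that order within 467 kb of chromosome 1. Their log2 fold changes in the order of position were 0.12, 0.22, 0.35, 0.67, 0.52 and -0.02, so that 5 of these 6 neighbours were above 0 (51.2% of all genes). With each library left out in turn *Il1r2* ran from -0.060 to 0.33 and *Il18rap* from -0.48 to 0.46. The levels of the 6 differed widely, from a mean of 0.60 TPM for *Il1rl1* to 36.6 TPM for *Il1r1*.

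The groups overlapped for both antagonists and the decoy of the family. *Il1rn*, the receptor antagonist that occupies IL1R1 without signalling, was at 84.8, 182 and 194 normalized counts in the Cre-negative ventricles and at 135, 182 and 158 in the Cre-positive ones. Its log2 fold change was 0.04 (SE 0.30) and turned to -0.25 without Cre-negative replicate 1, the lowest of the 6. *Il1r2*, the decoy receptor that binds IL-1 without signalling, had a log2 fold change of 0.12 (SE 0.32). *Il18bp*, which neutralizes IL-18, was at 386, 318 and 286 normalized counts against 365, 265 and 290 (log2 fold change -0.11, SE 0.16). Within a ventricle, the ratio of *Il1rn* to the sum of *Il1a* and *Il1b*, in TPM, was 1.24, 3.01 and 1.93 in the Cre-negative group and 1.05, 1.33 and 0.778 in the Cre-positive group. The groups overlapped, since Cre-positive replicate 2 was above Cre-negative replicate 1. Without Cre-negative replicate 1, the remaining Cre-negative ratios lay above all 3 Cre-positive ones. The ratio of *Il1r2* to *Il1r1* was at most 0.117 in any ventricle, that of *Il1rl1* to *Il33* at most 0.0401, and that of *Il18bp* to *Il18* ran from 3.07 to 7.12. The groups did not overlap for the ratio of the decoy *Il13ra2* to *Il13ra1*, at 0.0022, 0 and 0.0016 against 0.0067, 0.0024 and 0.0083, but it rests on 0 to 5 counts of *Il13ra2* in a ventricle. No p was computed for these ratios.

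**Figure D3:**
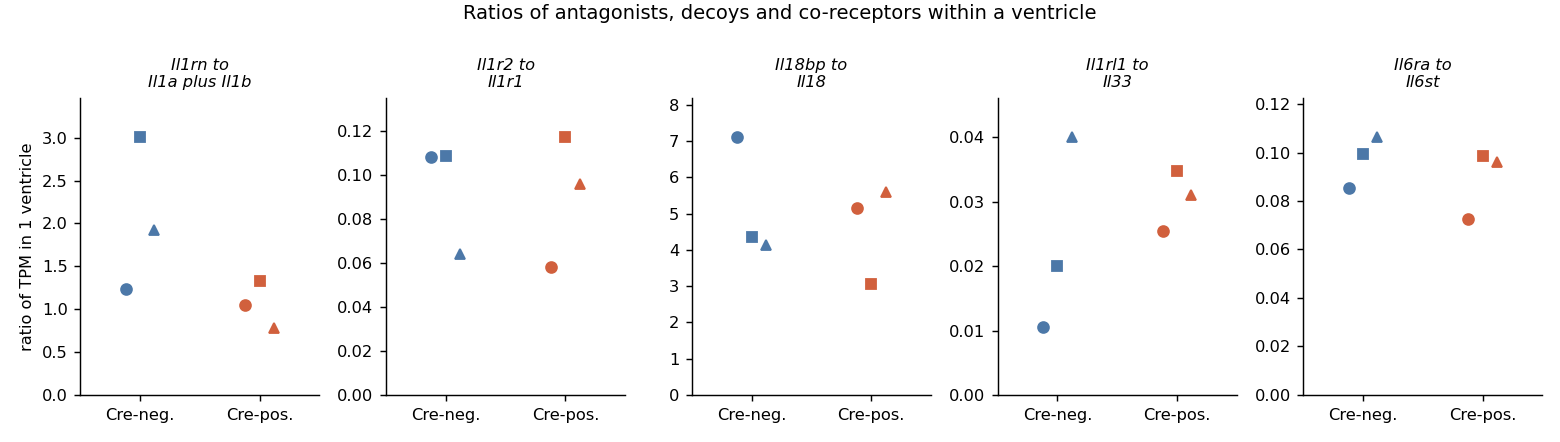
Ratios of TPM within each ventricle for 5 pairs, with Cre-negative ventricles in blue, Cre-positive ones in red, and circle, square and triangle for replicates 1, 2 and 3. The groups overlap in all 5 panels, and the ratio of *Il13ra2* to *Il13ra1*, whose groups did not overlap, is not drawn. The *Il1rn* ratio is highest in Cre-negative replicate 2 (3.01) and lowest in Cre-positive replicate 3 (0.778).

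In the IL-6 family 2 of the 5 tested members, the ligand *Il6* and the signalling chain *Il6st*, were higher in every Cre-positive ventricle, against 7.55% of all genes. Neither passed the test. 1 other, *Il11ra2*, was lower in every Cre-positive ventricle (6.85% of all genes), and the median log2 fold change of the 5 was 0.04. *Il6* (chr5:30013114-30019975) was at 20.0, 15.7 and 16.5 normalized counts in the Cre-negative ventricles and at 30.9, 24.0 and 24.5 in the Cre-positive ones. The log2 fold change was 0.60 (1.52-fold, SE 0.29, unadjusted p = 0.072), and it stayed between 0.48 and 0.70 in the alternatives. *Il6st*, the gp130 chain, was at 3064, 3164 and 3089 normalized counts against 3561, 3564 and 3364. Its values were close within each group and the gap between groups was small, with a log2 fold change of 0.17 (SE 0.08, unadjusted p = 0.072). *Il6ra*, the ligand-binding chain, was at 160, 193 and 201 against 159, 216 and 198, and overlapped throughout (0.04, SE 0.16). Its ratio to *Il6st* in TPM was 0.0853, 0.0994 and 0.107 in Cre-negative ventricles and 0.0727, 0.0987 and 0.0959 in Cre-positive ones.

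*Il11*, a ligand of the same family known for its action on fibroblasts, was not tested in the full comparison, with counts of 8, 8 and 3 in the Cre-negative ventricles and 24, 13 and 8 in the Cre-positive ones. Cre-positive replicates 1 and 2 were above all others, and Cre-positive replicate 3 equalled 2 of the Cre-negative counts. Without Cre-negative replicate 1 it passed the filter, with a log2 fold change of 1.41 (SE 0.70, unadjusted p = 0.076, edgeR adjusted p = 0.781), and over the 4 fits with 1 library left out in which it was tested the value ran from 0.75 to 1.41. Its receptor *Il11ra1* was high in every ventricle, at 1001, 932 and 792 normalized counts against 938, 742 and 934 (log2 fold change -0.06, SE 0.13). *Il11ra2*, a close copy of *Il11ra1*, was at 42.4, 46.2 and 38.9 normalized counts against 26.9, 26.8 and 37.2. All Cre-positive values lay below the Cre-negative ones (log2 fold change -0.49, SE 0.25, unadjusted p = 0.091), but reads of the 2 copies can be divided between them by the counting, so the value is uncertain. On the TPM scale its groups overlapped.

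In the IL-17 family, *Il17ra*, the chain common to the receptors of the family, was at 280, 373 and 340 normalized counts in the Cre-negative ventricles and at 448, 384 and 422 in the Cre-positive ones. The groups did not overlap, and Cre-positive replicate 2 was just above Cre-negative replicate 2. The log2 fold change was 0.33 (1.26-fold, SE 0.13, unadjusted p = 0.033, edgeR adjusted p = 0.714), or 0.23 with an unadjusted p of 0.071 without Cre-negative replicate 1, which was the lowest value over the alternatives. *Il17rc*, its partner in the receptor of IL-17A and IL-17F, overlapped between groups at 303, 321 and 377 against 389, 331 and 299 normalized counts. *Il17rd* had a log2 fold change of 0.28 (SE 0.17) and *Il17re* one of 0.45 (SE 0.59). With each library left out in turn these ran from 0.12 to 0.42 and from -0.13 to 1.05. The ligand *Il17d*, at 5.99 to 9.24 TPM, had a log2 fold change of -0.11 (SE 0.21), or -0.23 to -0.01 with each library left out. *Il17b*, *Il17c* and *Il25* had at most 4 counts in any ventricle.

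In the common gamma family *Il4ra*, *Il2rg* and *Il15ra* had mean levels of 70.7, 59.0 and 16.7 TPM, and *Il2rb* and *Il2ra* of 1.21 and 0.405 TPM. None of the 9 tested genes of this family had an unadjusted p under 0.05 or groups that did not overlap, against 2.85% and 7.55% of all genes higher and 2.98% and 6.85% lower. *Il2rg* was at 475, 843 and 750 normalized counts in the Cre-negative ventricles and at 725, 749 and 802 in the Cre-positive ones. Its log2 fold change of 0.14 (SE 0.19) turned to -0.07 without Cre-negative replicate 1, which was lowest by far. *Il7r*, the IL-7 receptor of lymphocytes and some myeloid cells, was at 41.2, 221 and 188 against 123, 203 and 153 normalized counts. The same library was again lowest, and the log2 fold change was 0.08 (SE 0.51), or -0.36 without it. *Il4ra* was at 1576, 1625 and 2078 normalized counts against 2370, 1846 and 2181, with Cre-negative replicate 3 inside the Cre-positive range (log2 fold change 0.28, SE 0.14, unadjusted p = 0.088). *Il15*, which sustains NK cells and memory T cells, was at 161, 261 and 194 against 115, 200 and 181 (-0.32, SE 0.25), and its presenting chain *Il15ra* had a log2 fold change of -0.21 (SE 0.18). With each library left out in turn *Il15* ran from -0.48 to -0.11 and *Il15ra* from -0.37 to -0.11. The family median was 0.14, and -0.07 without Cre-negative replicate 1.

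*Il13ra1*, which pairs with *Il4ra* to bind IL-4 and IL-13, was at 1184, 1201 and 1250 normalized counts against 1291, 1315 and 1256. The groups lay apart by few counts, and the log2 fold change was 0.09 (SE 0.08). The decoy *Il13ra2* had 1, 0 and 1 counts in the Cre-negative libraries and 4, 2 and 5 in the Cre-positive ones, too few for the test. *Il13* had 0 counts in each Cre-negative library, which allows up to 3 in each, and 0, 1 and 1 in the Cre-positive ones.

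In the IL-10 family, *Il10rb* was at 1959, 1845 and 1937 normalized counts in the Cre-negative ventricles and at 1812, 1726 and 1828 in the Cre-positive ones. The groups did not overlap, with a small log2 fold change of -0.10 (SE 0.08, unadjusted p = 0.26), and on log2(TPM + 1) the sign turned to 0.02 and the groups overlapped. *Il10ra*, the ligand-binding chain, was at 219, 437 and 491 against 392, 375 and 457, with Cre-negative replicate 1 lowest. *Il10*, the ligand, had counts of 5, 10 and 1 against 5, 6 and 6 and was not tested. *Il22ra1*, an epithelial receptor chain for IL-22, ranged from 10.8 to 50.6 normalized counts within the Cre-negative group alone.

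The remaining families were low or flat. Of the IL-12 family *Il27ra* and *Il12rb2* were tested, with log2 fold changes of 0.17 (SE 0.29) and 0.61 (SE 0.52), or -0.06 to 0.57 and 0.33 to 1.25 with each library left out in turn. The *Il27* subunit had 3, 9 and 7 counts against 3, 3 and 1. *Il3ra*, the IL-3 receptor, was at 451, 564 and 469 normalized counts against 428, 455 and 463 (-0.14, SE 0.11), and *Il5*, *Il5ra*, *Il9r* and *Il21* were not tested. *Il34*, a second ligand of the macrophage growth factor receptor, and *Il16* had log2 fold changes of 0.14 (SE 0.21) and 0.10 (SE 0.15). With each library left out in turn these ran from -0.02 to 0.32 and from -0.01 to 0.22. *Il4i1* had a log2 fold change of -0.51 (SE 0.39), or -0.85 to -0.25 with each library left out in turn. Its annotated position overlaps that of *Il4i1b*, which had 8.62 estimated counts in Cre-positive replicate 2 and 0 elsewhere, so the division between these 2 is uncertain. Over all 24 untested members the highest count in any ventricle was 24, and 19 had a mean under 5 counts.

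**Figure D4:**
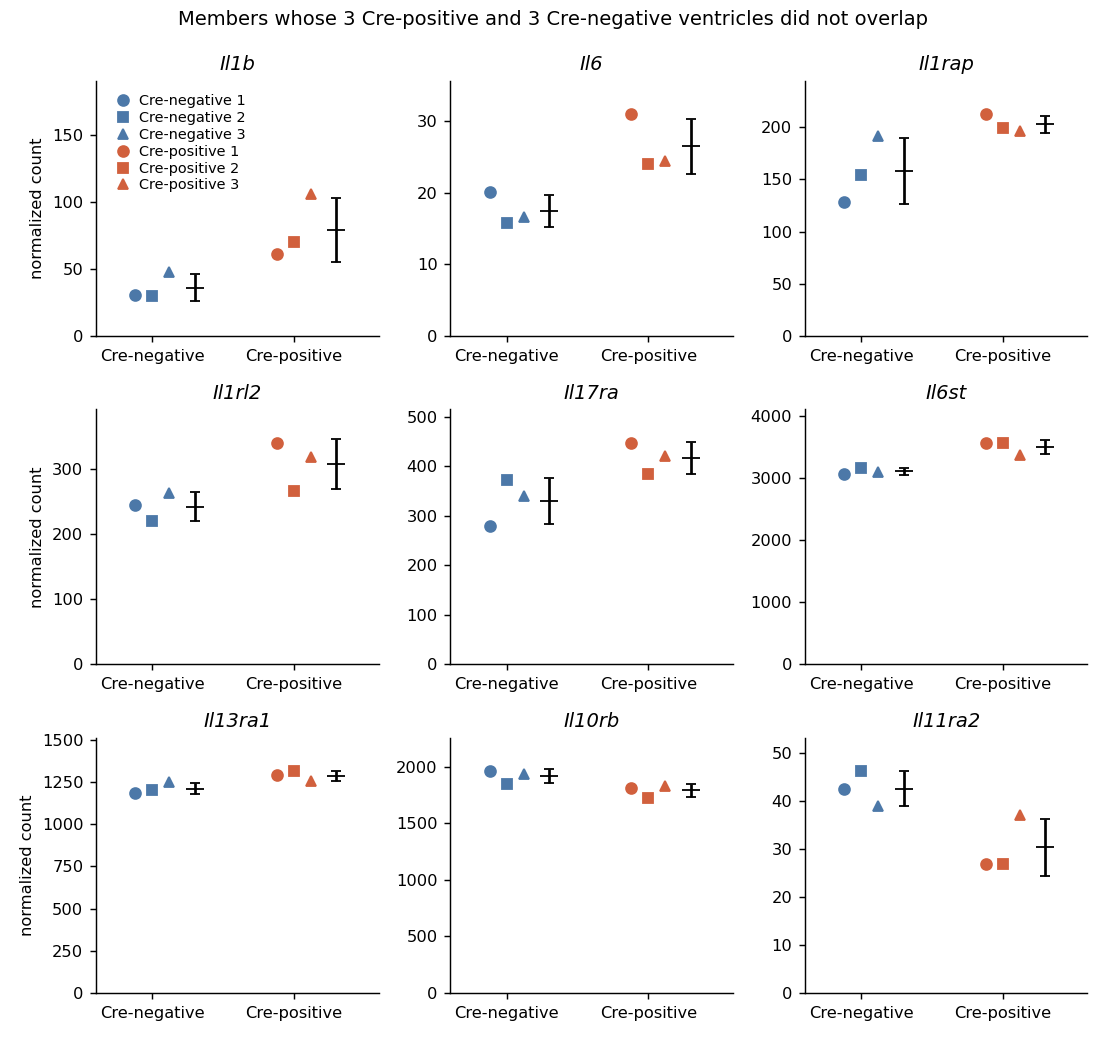
Normalized counts of the 9 members whose 3 Cre-positive and 3 Cre-negative ventricles did not overlap, on axes that start at 0, with the mean and SD of each group beside the points. *Il1b*, with the largest fitted fold change of the 9 (2.19-fold), lies at 29.5 to 47.7 against 60.8 to 106, and the gaps of *Il13ra1* and *Il10rb* are small next to their levels.

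Cre-negative replicate 1 was the lowest of the 6 ventricles for 20 of the 43 tested members (46.5%, against 32.1% of all genes) and the highest for 5 (11.6%, against 30.8%). Its median member lay at -0.13 on the log2 scale from the median of the 6 ventricles, and the median of all genes at -0.009. The members furthest below were *Il7r* (-2.01), *Il2rb* (-1.60), *Il1rl1* (-1.57), *Il12rb2* (-1.09), *Il1rn* (-0.99) and *Il10ra* (-0.92), of which *Il7r*, *Il2rb*, *Il12rb2* and *Il10ra* are chains known from lymphocytes and myeloid cells. Those furthest above were *Il22ra1* (0.89), *Il17re* (0.84) and *Il18r1* (0.57). In the same library the 8 markers of monocytes and macrophages summed to 1867 TPM, against 2736 to 3179 in the others, the 7 T cell markers found summed to 3.61 TPM, against 7.21 to 15.6, and those of NK cells to 0.80 TPM, against 2.70 to 9.06. Sums in Cre-negative replicate 1 were also lowest for fibroblast markers (3392 TPM, against 4699 to 6132) and endothelial markers (447, against 519 to 608). That of cardiomyocyte markers was highest (41999 TPM, against 30704 to 35943). Those of B cells (16.6 TPM, against 11.1 to 71.0) and mast cells (24.3, against 11.9 to 29.3) lay within the range of the others. The part of these cell types in the values of the members was not tested.

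**Figure D5:**
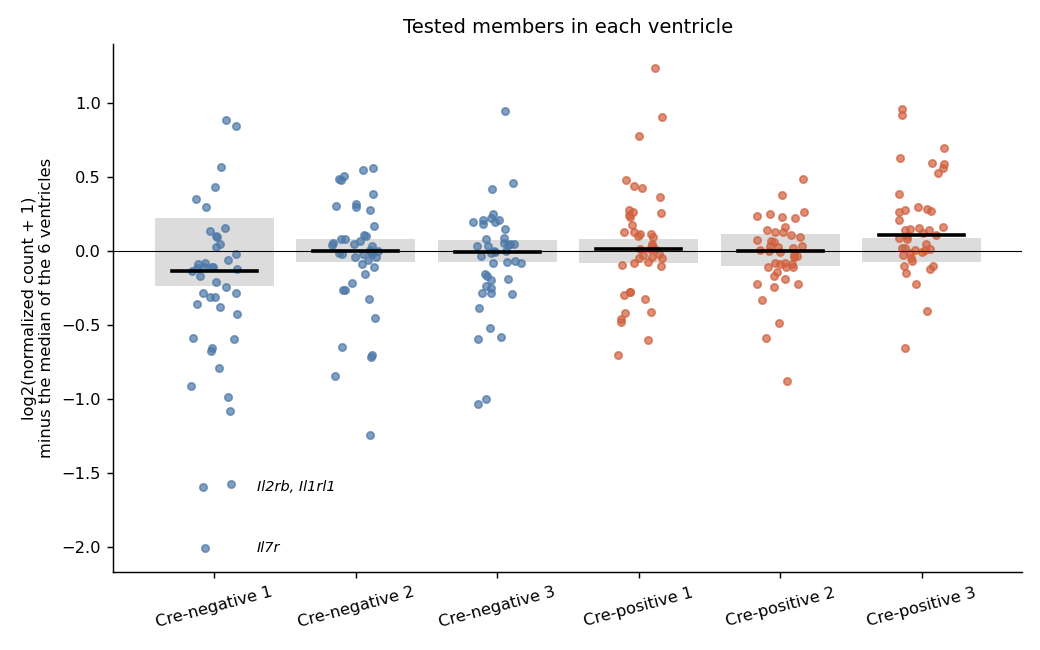
Each tested member in each ventricle, as log2(normalized count + 1) minus its median over the 6 ventricles, with a black bar for the members' median and a grey band for the middle 50% of all tested genes. Cre-negative replicate 1 has the lowest median of members (-0.13) and the widest band, and *Il7r* lies lowest (-2.01).

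Levels of cell type markers varied between libraries, and no listed marker passed edgeR's test (lowest adjusted p 0.714). The 8 cardiomyocyte markers all had fitted values below 0, 5 with groups that did not overlap (6.85% of all genes), and summed to 35664 to 41999 TPM in the Cre-negative group and 30704 to 34901 TPM in the Cre-positive group. Their median log2 fold change was -0.31, or -0.13 with 1 of 8 above 0 without Cre-negative replicate 1, when the lowest Cre-negative sum (35664 TPM) lay close to the highest Cre-positive one (34901 TPM). The 6 fibroblast markers summed to 3392 to 5245 TPM and 5263 to 6132 TPM, and those of endothelium to 447 to 532 TPM and 544 to 608 TPM. The TPM scale moved most genes upward. In the edgeR fit 5 of 6 were above 0 in both lists, against 51.2% of all genes. The fibroblast median was 0.11 (0.11 with 4 of 6 above 0 without Cre-negative replicate 1), and 0 of 6 had groups without overlap on normalized counts. The endothelial median was 0.05 (0.09 without that library), and 1 of 6 did not overlap (7.55% of all genes higher). The 8 neutrophil markers had a median log2 fold change of -0.92 with all libraries, 7 of 8 below 0, and of 0.45 without Cre-negative replicate 1, 7 of 8 above 0. Monocyte and macrophage markers had medians of 0.10 and -0.08. Most lymphocyte markers had fitted log2 fold changes above 0, with 6 of 6 B cell markers (median 0.40, or 0.16 without Cre-negative replicate 1) and 4 of 5 tested T cell markers (median 0.48, or 0.26 with 5 of 6 above 0). Of the 6 NK cell markers *Gzma* alone was tested with all libraries (1.03, or 0.64 without Cre-negative replicate 1), and its groups overlapped. *Ncr1* had 0, 1 and 1 counts against 7, 8 and 11, without overlap. The groups overlapped for the other NK cell markers. *Klrk1* had 3, 10 and 12 counts against 9, 10 and 13, and *Prf1* had 1, 1 and 4 against 4, 0 and 3. *Klrb1c* had 0, 4 and 3 counts against 3, 7 and 3, and *Eomes* had 2, 5 and 5 against 11, 5 and 18. B cell markers summed to 11.1 to 71.0 TPM and mast cell markers from 11.9 to 29.3 TPM, with both groups spanning most of the range. No listed marker was at 0 in all 6 libraries, and *Trbc2* was not found. The part of cell composition in the values of *Il1b*, *Il6* and the receptor chains was not tested.

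Among pathway genes named otherwise, 43 genes in 3 lists were tested and none was called by edgeR. Of 17 related ligands and receptor chains, 12 were above 0 and 5 below (median 0.09), or 8 of 17 above 0 without Cre-negative replicate 1 (median -0.006), and 1 had an unadjusted p under 0.05 (2.85% of all genes higher and 2.98% lower). This was *Osmr*, the oncostatin M receptor that pairs with gp130, at 971, 823 and 856 normalized counts against 1101, 1130 and 1107. Its Cre-positive values lay close together above the Cre-negative ones (log2 fold change 0.33, SE 0.09, unadjusted p = 0.0064, edgeR adjusted p = 0.714). *Lif*, a ligand of gp130 complexes, was at 43.6, 67.8 and 74.9 against 102, 92.5 and 77.3 (0.54, SE 0.24, unadjusted p = 0.059), also without overlap. These 2 of the 17 did not overlap, against 7.55% of all genes higher. Without Cre-negative replicate 1 the log2 fold change was 0.34 for *Lif* and 0.40 for *Osmr*. Of 14 JAK-STAT genes and their feedback inhibitors, 8 were above 0 and 6 below (median 0.05), or 7 of 14 above 0 without Cre-negative replicate 1 (median 0.005). The kinases *Jak1*, *Jak2* and *Jak3* had groups that did not overlap, against 7.55% of all genes higher, with log2 fold changes of 0.14, 0.22 and 0.13. *Stat3*, the main transducer of gp130, was at 0.05 (SE 0.12), and *Socs3*, its feedback inhibitor, at 0.21 (SE 0.11). Without Cre-negative replicate 1 *Stat3* was at 0.16 and *Socs3* at 0.28. Of 12 genes of IL-1 and IL-17 signalling, 5 were above 0 and 7 below, with a median of -0.007 (7 of 12 above 0 and 0.03 without Cre-negative replicate 1), and none had an unadjusted p under 0.05, against the same shares of all genes.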

How the data were processed

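Left ventricles of 3 Cre-positive and 3 Cre-negative mice were profiled by bulk RNA-seq, with groups and replicate numbers taken from the sample labels. The submitters' processing notes name Bowtie2 2.2.5, RSEM 1.2.12 and the genome build GRCm38.p6. The authors deposited estimated counts, not normalized, of which 11.46% are not whole, and TPM values, which the authors scaled to 1000000 per ventricle. The 6 deposited FPKM columns, and the authors' own comparison of the groups (fold changes and p-values), were not used. Positions and upstream sequences are from RefSeq tables of GRCm38.p6, which matched all 67 members by gene number.

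Estimated counts were rounded and analysed in R 4.3.3. Genes were kept by filterByExpr (minimum count 10, minimum total 15), scaled by TMM and tested over the whole table by edgeR 4.0.16 (quasi-likelihood test, no covariate, Benjamini-Hochberg threshold 0.05). Unadjusted p-values are from the same fit. Normalized counts are TMM-scaled to the mean library. Alternatives were DESeq2 1.42.0, its size factors, no filter, a mean of at least 50 counts, limma 3.58.1 on log2(TPM + 1) and log2(TPM + 0.1), each library left out, and a replicate block. Values were given for members with an unadjusted p under 0.05, without overlap of groups, among the 10 highest by mean TPM, or in fixed receptor-ligand pairs, 27 in all. Other members were given by family, and those named for a position, a neighbour or Cre-negative replicate 1 were chosen after their values were seen. The members, lists and rules were chosen with earlier results of these data known, so no list was tested. Figures were drawn with matplotlib 3.10.9 in Python 3.11.15.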

Additional observations from a re-analysis of the deposited data

How the results depend on the processing

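Across 13 alternatives no member had an adjusted p under 0.05, and the lowest was 0.509. Of the 23 named members with a fitted fold change, 13 kept their direction in every alternative run and 10 reversed in at least 1. Those that kept it included *Il1b*, *Il6*, *Il6st*, *Il1rl2*, *Il17ra*, *Il1rap* and *Il1r1*. All of these genes but *Il1r1* had groups without overlap, so leaving out a library could hardly reverse them. For such genes the fits with a library left out are no test of direction. On log2(TPM + 1) and log2(TPM + 0.1), *Il10rb* reversed to 0.020 and 0.021, *Il18bp* to 0.018 in both, and *Il11ra1* to 0.057 and 0.058. With each library left out in turn the log2 fold change ran from -0.060 to 0.33 for *Il1r2*, -0.25 to 0.24 for *Il1rn*, -0.055 to 0.16 for *Il6ra*, -0.19 to 0.31 for *Il10ra*, -0.25 to 0.016 for *Il18bp*, -0.075 to 0.31 for *Il2rg*, -0.15 to 0.044 for *Il11ra1*, -0.083 to 0.12 for *Il17rc*, -0.047 to 0.29 for *Il18* and -0.024 to 0.061 for *Yap1*. *Postn* had log2 fold changes from -0.94 to -0.45, and passed the threshold without Cre-negative replicate 1 (-0.94, edgeR adjusted p = 0.018).

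The number of genes called was 1, and 5 with DESeq2, 2 with limma on either TPM scale, 0 with the replicate block and 0 to 2 with a library left out. Members higher at an unadjusted p under 0.05 numbered 3 of 43, but 9 of 43 on both TPM scales (6.37% and 6.17% of all genes). With a library left out they numbered 1 to 6 of 43 or 44 (1.76% to 4.07% of all genes). Members lower numbered 0, or 0 to 1 with a library left out (0.923% to 5.54%). Members whose groups did not overlap numbered 7 of 43 higher, or 8 to 13 of 43 or 44 with a library left out (10.9% to 14.9% of all genes). Lower members numbered 2 of 43, but 1 of 28 with a mean of at least 50 counts (7.09%) and 0 on both TPM scales (2.44%). With a library left out they numbered 2 to 5 (10.2% to 13.8%). The median over the tested members was 0.13, and 0.03 to 0.21 with a library left out. The causes of these shifts were not tested, apart from fewer samples giving non-overlap more often by construction.

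Same-numbered ventricles correlated at 0.354, 0.073 and -0.032 in their deviations from the group means, so the numbers were not taken to pair the mice. The replicate block gave 3 of 43 members higher at an unadjusted p under 0.05 (3.78% of all genes) and a median of 0.15. Depth limited the 24 untested members, most of them ligands.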
